A study of Mus musculus with 6 samples.

Results

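Transcripts of 34 genes of the peroxisome were followed in glomeruli isolated from mice, with 21 genes for enzymes and transporters of peroxisomal lipid metabolism and 13 biogenesis (Pex) genes. The members were a fixed list of gene symbols, and all 34 were found among the 55401 genes of the deposited count table. The study sequenced polyadenylated RNA from 3 Control and 3 DKD libraries, where DKD stands for diabetic kidney disease, and it set out to profile histone methyltransferases in that disease. The labels record Control or DKD as the genotype. They do not give the strain, the age or how the disease was induced, and they do not tie libraries to separate animals. The p-values therefore reflect only how these libraries varied, which may be technical. Values are CPM, the library-scaled counts that edgeR computes with TMM factors, ± after a mean is the SD over 3 libraries, and ± after a log2 fold change (DKD over Control) is the standard error. Where a pair of means is given, Control comes first. For single genes, overlap between the groups was judged on these CPM, so it depends on the scaling.

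Peroxisomes are single-membrane organelles that shorten very long chain and branched fatty acids and bile acid precursors, and they pass shortened acyl groups to mitochondria. Their oxidases release hydrogen peroxide, which catalase breaks down. Matrix proteins are made in the cytosol and imported by cargo receptors, a docking complex and a recycling machinery encoded by Pex genes. In the kidney the organelle is most abundant in proximal tubule cells, which reabsorb the filtrate of the glomerulus. PPARA, a nuclear receptor that senses fatty acids, is a known activator of many peroxisomal and mitochondrial oxidation genes in rodents.

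Library totals ran from 71154026 to 83576494 counts. Transcripts of the mitochondrial genome took 10.6% to 12.2% of the counts in Control and 15.3% to 18.7% in DKD, and their part in the results was not tested. The podocyte markers Nphs1, Wt1, Podxl and Synpo were present in every library, and none of the 15 podocyte markers was at 0. Proximal tubule markers were also present in every library and held far more counts: their sum was 4.16% to 6.76% of the counts in Control and 2.9% to 4.1% in DKD, against 0.0578% to 0.0989% and 0.0472% to 0.0622% for podocyte markers. The tubule list had 34 genes, 30 of them with lower values in DKD (median log2 fold change −0.83), and 4 fell in the edgeR test, or 11.8%, against 1.16% of all genes. Without Control replicate 3 the median was −0.38 and 7 passed the threshold, as 1.88% of all genes did. Of the 15 podocyte markers 12 had lower values in DKD (median −0.56), and 0 passed the edgeR threshold. The groups did not overlap for 8 of them, all lower, or 53.3%, against 15.2% of all genes. At an unadjusted edgeR p under 0.05 there were 8, all lower, or 53.3%, against 10.9% of all genes. DESeq2 called 6, or 40%, against 13.7% of all genes in either direction. Control replicate 3 had the highest value of all 6 libraries for 27 of these 34 markers. In such bulk samples, fewer cells of a type and less RNA per cell cannot be told apart.

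The enzyme and biogenesis transcripts stayed close to their Control level as groups, with a few members well above it. The 21 enzyme genes had a median log2 fold change of 0.15, with 14 higher and 7 lower in DKD. The 13 Pex genes had a median of 0.01, with 7 higher and 6 lower, beside a median of 0.003 over all genes tested. Scaled by library totals alone, the medians were 0.04 for the enzymes, −0.09 for the Pex genes and −0.13 for all genes. The members with the smallest p were the dienoyl-CoA isomerase gene Ech1, the proliferation factor gene Pex11a and the lyase gene Hacl1, all higher in DKD. The racemase gene Amacr had the largest log2 fold change in size, −1.22, but it was −0.64 without Control replicate 3, and 6 members had a smaller p.

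Summed over members, the enzyme genes held 0.562% to 0.673% of the counts in Control and 0.537% to 0.647% in DKD, so the groups overlapped. The Pex genes held 0.0676% to 0.0689% in Control and 0.068% to 0.0683% in DKD. The DKD range of the Pex sum thus lay inside the Control range.

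**Figure D1:**
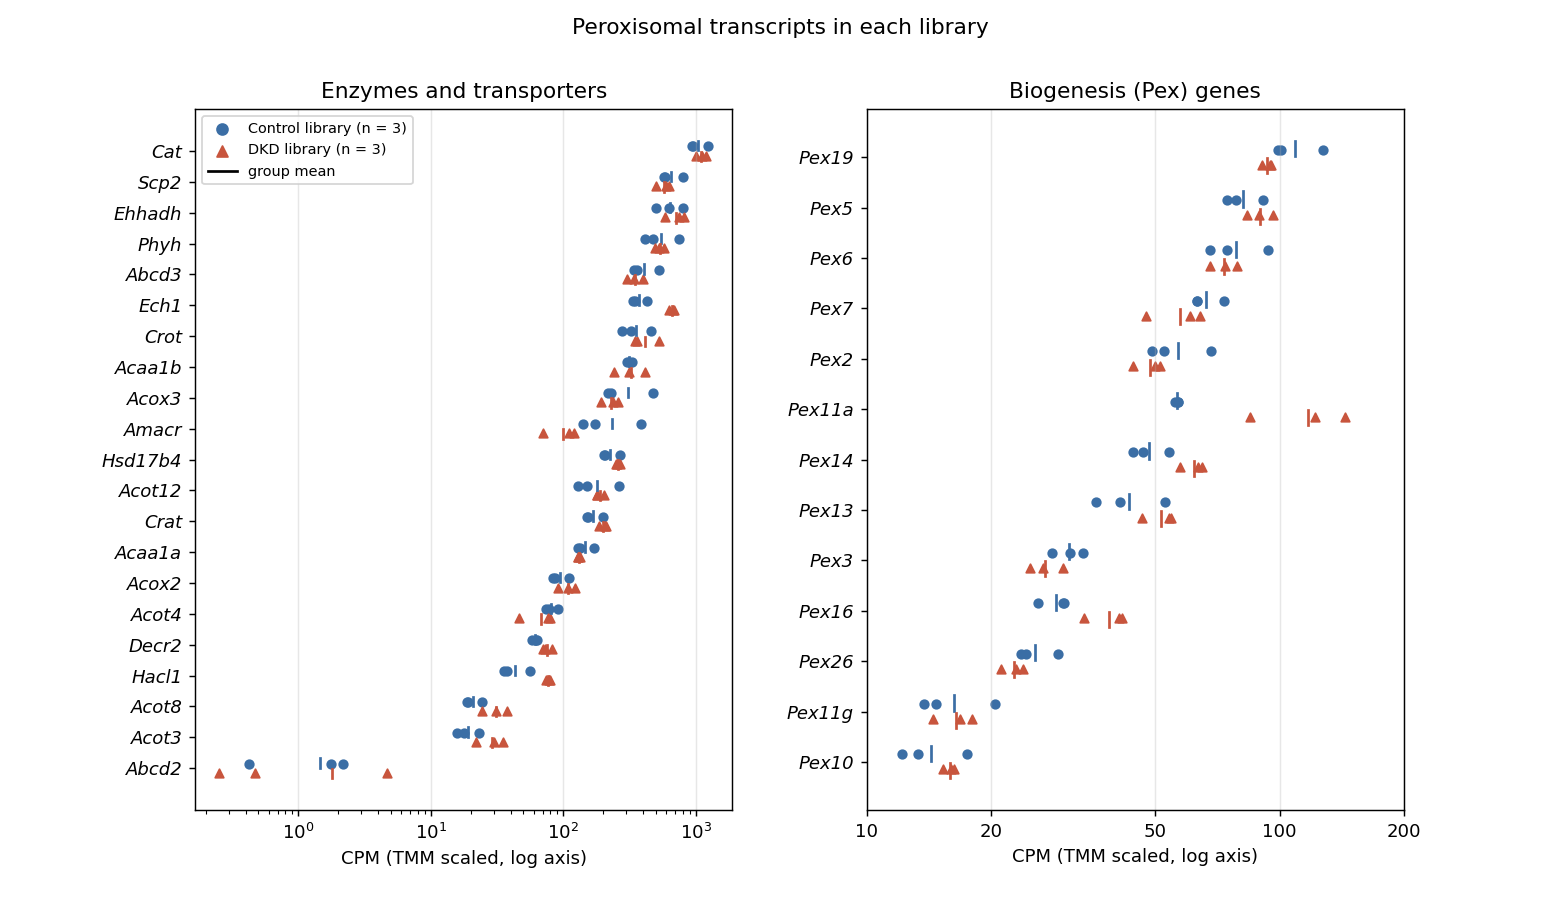
Levels of the 21 enzyme and transporter genes (left) and the 13 Pex genes (right) in each library, in CPM on log axes. Circles are Control libraries, triangles are DKD libraries and short vertical lines are group means (n = 3 each); Ech1, Hacl1 and Pex11a show DKD libraries above all Control libraries.

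All 34 members passed the filter on low counts. By edgeR's quasi-likelihood test with Benjamini-Hochberg adjustment over 19717 genes, 0 of the 21 enzyme genes and 0 of the 13 Pex genes passed an adjusted p of 0.05, where 1.16% of all genes did, 0.725% higher in DKD and 0.431% lower. At an unadjusted p under 0.05 there were 6 enzyme genes (5 higher and 1 lower) and 3 Pex genes (all higher), which is 28.6% and 23.1% of them against 22.6% of all genes. DESeq2 called 3 enzyme genes, Ech1, Hacl1 and Amacr, and 1 Pex gene, Pex11a, while it called 13.7% of all genes. Limma-voom called 0 of either group, against 1.03% of all genes. The groups did not overlap for 5 enzyme genes and 4 Pex genes, or 23.8% and 30.8%, against 30.7% of all genes tested. Both shares were near or under the background, so these counts set neither group apart from other genes.

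**Figure D2:**
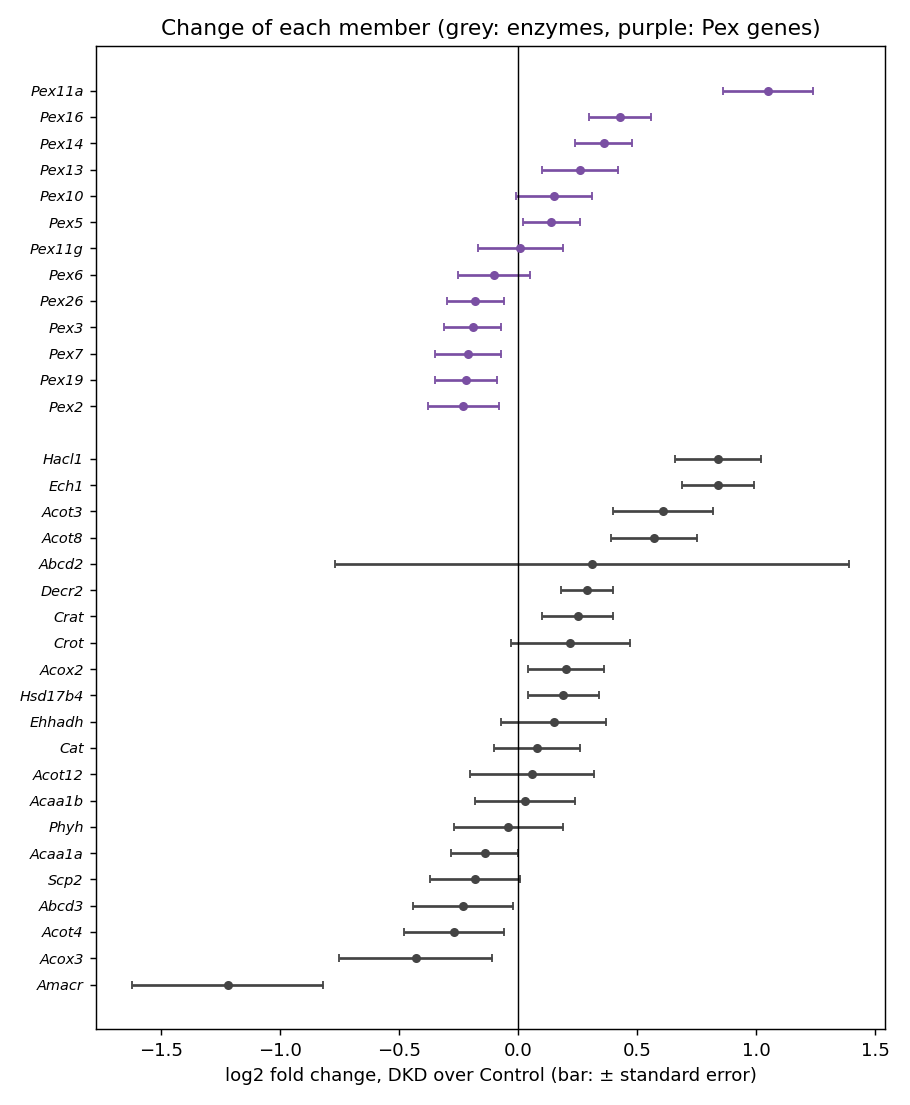
Log2 fold change of each member, DKD over Control, with its standard error as a bar (grey, enzymes and transporters; purple, Pex genes). Most members lie within 0.5 of 0, while Pex11a is at 1.05, Hacl1 and Ech1 are at 0.84 and Amacr is at −1.22.

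The first steps of peroxisomal beta oxidation are acyl-CoA import, oxidation by acyl-CoA oxidases, and hydration and dehydrogenation by bifunctional enzymes. Among the import transporters of the ABC family, Abcd3, which carries branched and dicarboxylic acyl-CoAs, averaged 408 ± 100.3 CPM over the Control libraries and 347 ± 47.1 CPM over the DKD libraries (log2 fold change −0.23 ± 0.21). Its relative Abcd2 was the lowest of the members. It was at 2.16, 1.78 and 0.423 CPM in Control replicates 1 to 3 and at 0.254, 0.471 and 4.68 CPM in DKD replicates 1 to 3, so a single DKD library held the highest value. Its log2 fold change of 0.31 ± 1.08 became −2.0 without DKD replicate 3 and −0.13 without Control replicate 3, so its direction rests on single libraries.

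Acox2 acts on bile acid precursors and Acox3 on branched chains. Acox2 was measured at 93.8 ± 14.8 and 108 ± 15.4 CPM (0.20 ± 0.16). Acox3 was at 218, 229.9 and 479 CPM in Control replicates 1 to 3 and at 237, 259.6 and 192 CPM in DKD replicates 1 to 3. Control replicate 3 stood far above every other library, and without it the log2 fold change went from −0.43 ± 0.32 to 0.03.

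The bifunctional enzyme genes were among the abundant members. Ehhadh, whose enzyme takes straight-chain and dicarboxylic substrates, was measured at 645 ± 152 and 714 ± 119 CPM (0.15 ± 0.22). Hsd17b4, whose enzyme takes branched chains and bile acid precursors, was at 227 ± 37.8 and 258 ± 8.39 CPM (0.19 ± 0.15). The groups overlapped for each of them, and the larger spread was in Control.

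Thiolases cleave the shortened chain. Acaa1a was measured at 145 ± 23.3 and 131 ± 2.8 CPM (−0.14 ± 0.14). Acaa1b was at 304, 315 and 329 CPM in Control and at 415, 315 and 240.3 CPM in DKD, so DKD libraries lay above, among and below the Control libraries. These copies are close relatives, and Acaa1a transcripts hold 40% of the 31-base words of Acaa1b, so reads may have been split between them. Their sum ran from 438 to 500.5 CPM in Control and from 369.7 to 549 CPM in DKD and overlapped as well. Scp2, which yields a thiolase and a sterol carrier protein, was measured at 650.4 ± 125 and 574 ± 67.2 CPM (−0.18 ± 0.19). A processed copy, Scp2-ps2, shares 33.4% of the words of Scp2 and had a like log2 fold change of −0.11 ± 0.16.

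Auxiliary enzymes prepare unsaturated chains for oxidation, and both listed genes were higher in DKD. Ech1 encodes a dienoyl-CoA isomerase of peroxisomes and mitochondria. It was at 335, 349 and 427 CPM in Control replicates 1 to 3 and at 676, 629.6 and 688 CPM in DKD replicates 1 to 3. Every DKD library thus stood well above every Control library. The log2 fold change was 0.84 ± 0.15, with an edgeR adjusted p of 0.0556, just outside the threshold. Over 16 alternative settings the log2 fold change ran from 0.69 to 0.96 and the adjusted p from 4.98e-06 to 0.185, with 5 settings past the threshold. Among them were DESeq2 and the fit without Control replicate 3 (adjusted p 0.0225).

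Decr2, the peroxisomal dienoyl-CoA reductase gene, was at 62.8, 57.8 and 63.4 CPM in Control and at 72.5, 70 and 82.1 CPM in DKD. Its groups did not overlap either on the TMM scale, but the difference was smaller, at 0.29 ± 0.11 with an edgeR adjusted p of 0.178. Scaled by library totals alone, it was 0.16 with an edgeR adjusted p of 0.512. The ratio of Ech1 to Decr2 was 5.33 to 6.74 in Control and 8.38 to 9.33 in DKD.

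Alpha oxidation removes the first carbon of phytanic acid and other chains with a methyl branch that blocks beta oxidation. Phyh, the phytanoyl-CoA hydroxylase that opens the pathway, was measured at 547 ± 176 and 533 ± 40.1 CPM (−0.04 ± 0.23). Hacl1, the lyase of the next step, was at 55.7, 37.6 and 35.9 CPM in Control and at 74.6, 77.9 and 79.1 CPM in DKD. The DKD libraries were high and tightly grouped, and all lay above Control. Its log2 fold change was 0.84 ± 0.18, with an edgeR adjusted p of 0.0636 that ranged from 0.00118 (DESeq2) to 0.198 over the alternatives. A gene model on the same strand, Gm49387, covers 31.1% of the exonic bases of Hacl1 and was listed at 0 in all libraries.

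Amacr encodes the racemase that turns branched acyl-CoAs into the form that the oxidases accept. It was at 140.3, 173 and 387 CPM in Control replicates 1 to 3 and at 120, 111 and 70.4 CPM in DKD replicates 1 to 3. Every DKD value was under the lowest Control value, but Control replicate 3 was far above the rest. The log2 fold change of −1.22 ± 0.40 (edgeR adjusted p 0.14) became −0.64 without that library (edgeR adjusted p 0.165). DESeq2 gave an adjusted p of 0.0195. The lower Amacr values went with the lower summed level of proximal tubule markers given above, and the part of those cells in it was not tested.

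Acyl-CoA leaves the organelle as free acid, by thioesterases, or as carnitine ester. Acot8, a thioesterase with broad chain specificity, was at 19.2, 18.8 and 24.2 CPM in Control and at 31, 24.4 and 37.4 CPM in DKD. The lowest DKD value lay just above the highest Control value, and the log2 fold change was 0.57 ± 0.18 (edgeR adjusted p 0.134). Acot3, a gene for a long-chain thioesterase, was at 23.1, 17.8 and 15.9 CPM against 35.1, 29.8 and 21.8 CPM, with overlapping groups (0.61 ± 0.21, edgeR adjusted p 0.155).

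Acot4, a succinyl-CoA and dicarboxylyl-CoA thioesterase gene next to Acot3, was measured at 81.4 ± 8.69 and 67.5 ± 18.5 CPM (−0.27 ± 0.21), with the low value in DKD replicate 3. Other transcripts share 23.1% of the 31-base words of Acot3 and 8.23% of those of Acot4, so a split of reads within this family is possible. Acot12, an acetyl-CoA thioesterase gene, was at 181 ± 71.3 and 189 ± 13.5 CPM (0.06 ± 0.26). It is given here as a listed member, and whether its protein acts inside the peroxisome was not examined. The thioesterase genes thus had values on either side of 0.

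The carnitine acyltransferases move shortened chains towards mitochondria. Crot, for medium chains, was measured at 354 ± 92.1 and 412 ± 102 CPM (0.22 ± 0.25). Crat, for acetyl groups, was at 168 ± 27.3 and 200.4 ± 12.1 CPM (0.25 ± 0.15). Catalase, encoded by Cat, was at 936, 962 and 1236 CPM in Control and at 1187, 1012 and 1115 CPM in DKD (0.08 ± 0.18), and its groups overlapped.

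Levels were also divided by the exonic length, here in CPM per kilobase, for a rough comparison between genes. That length joins all annotated exons of a gene and not those of the transcript expressed. Genes with many annotated variants may therefore rank too low. On that scale Cat ranked highest of the 21 enzyme genes in every library, at 399.7 ± 63.6 in Control and 423 ± 33.5 in DKD. Phyh, at 289 ± 92.7, and Ehhadh, at 216 ± 51.1, followed in each Control library. Ech1 stood at 162 ± 21.7 in Control, rank 5 or 6, and at 291 ± 13.6 in DKD, rank 2 or 3. Amacr stood at rank 7 or 8 in Control and at rank 11 to 14 in DKD. Abcd2 was last throughout.

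Among the Pex genes, Pex11a had the largest difference. The PEX11 proteins shape the peroxisomal membrane and promote elongation and division, and Pex11a is the family member known to respond to PPARA activators in rodents. It was at 56.7, 55.9 and 56.8 CPM in Control replicates 1 to 3, an SD of 0.452, and at 122, 84.6 and 144 CPM in DKD replicates 1 to 3. All DKD libraries were higher, with a wide spread among themselves. The small Control SD is that of TMM-scaled values. The Control counts were 4739, 4528 and 4296, in libraries of 74239752, 72451052 and 83576494 counts, so the unscaled shares differed more. The log2 fold change was 1.05 ± 0.19, with an edgeR adjusted p of 0.056. Over 16 alternatives the log2 fold change ran from 0.87 to 1.22 and the adjusted p from 7.52e-05 to 0.173, with 3 settings past the threshold. Among them were DESeq2 and the fit without DKD replicate 2, the lowest DKD library (adjusted p 0.0377).

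Per kilobase, Pex11a had rank 5 of the 13 Pex genes in each Control library, at 17.7 ± 0.142, and highest in each DKD library, at 36.7 ± 9.36. Its paralog Pex11g was measured at 16.3 ± 3.59 and 16.5 ± 1.8 CPM (0.01 ± 0.18). The ratio of Pex11a to Pex11g was 3.85, 4.05 and 2.78 in Control and 7.25, 4.69 and 9.9 in DKD. The ratio did not overlap between the groups.

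Ratios were compared for 3 pairs chosen after the values were seen. On the log2 scale the ratio was higher in DKD by 0.99 for Pex11a to Pex11g, by 0.86 for Hacl1 to Phyh and by 0.57 for Ech1 to Decr2. Each gave p = 0.1 in a two-sided exact permutation test (0.1 after adjustment over the 3 pairs), the smallest p that 3 against 3 allows. The adjustment does not cover the choice of the pairs, so these p-values are a description only. For Hacl1 to Phyh the highest Control ratio was 0.134 and the lowest DKD ratio was 0.136. Gm44775 lies opposite 41.1% of the exonic bases of Pex11g.

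**Figure D3:**
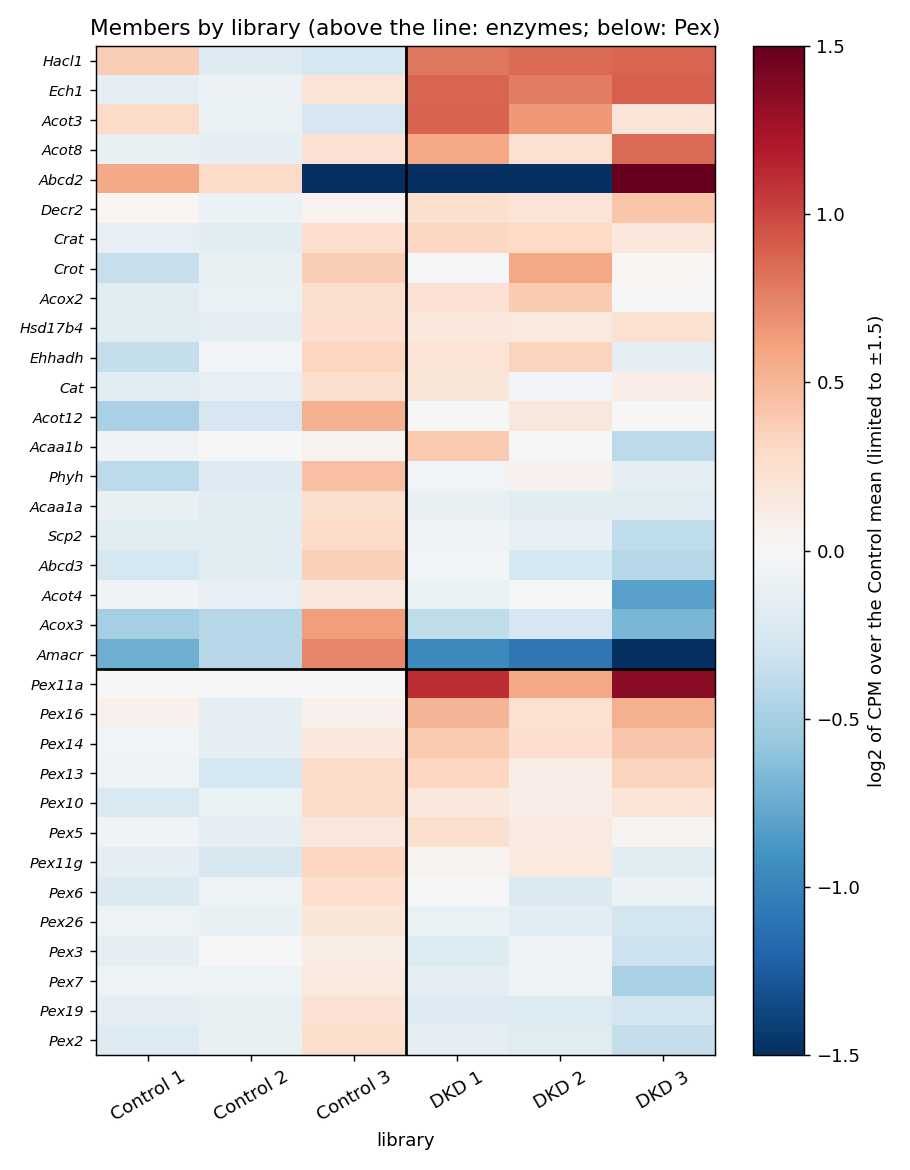
Log2 of the CPM in each library over the Control mean, for the enzymes (above the horizontal line) and the Pex genes (below), with the colour limited to ±1.5. Ech1, Hacl1 and Pex11a are red in all DKD libraries, and Control replicate 3 is red for many members that are blue in the other Control libraries.

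Membrane protein insertion rests on PEX3, PEX16 and PEX19, which place peroxisomal membrane proteins. Pex16 was at 30.1, 26 and 29.9 CPM in Control and at 40.8, 33.5 and 41.5 CPM in DKD. Its groups did not overlap, and the log2 fold change was 0.43 ± 0.13 (edgeR adjusted p 0.116). The values of its partners pointed the other way. Pex3 was measured at 30.9 ± 2.62 and 27.1 ± 2.52 CPM (−0.19 ± 0.12). Pex19 was at 99.1, 101 and 127 CPM in Control and at 95.4, 94.5 and 90.4 CPM in DKD (−0.22 ± 0.13), so the groups were separate by a small step.

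Pex13 and Pex14 encode the docking complex at the membrane, where loaded receptors arrive. Pex14 was at 46.8, 44.1 and 54 CPM in Control and at 63.5, 57.5 and 64.7 CPM in DKD (0.36 ± 0.12, edgeR adjusted p 0.137). No DKD value was as low as the highest Control value. An antisense model, Gm17029, lies opposite 28.3% of its exonic bases and reached at most 3.07 CPM. Pex13 was at 43.2 ± 8.64 and 51.6 ± 4.6 CPM (0.26 ± 0.16), with overlapping groups.

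The cargo receptors are PEX5, for the C-terminal targeting signal of most matrix enzymes, and PEX7, for the N-terminal signal of a few. Pex5 was measured at 81.4 ± 8.82 and 89.6 ± 6.29 CPM (0.14 ± 0.12). Pex7 was at 66.4 ± 5.86 and 57.4 ± 8.8 CPM (−0.21 ± 0.14). The groups overlapped for both receptors.

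Receptor recycling needs a RING ubiquitin ligase, which includes PEX2 and PEX10, and an ATPase, which includes PEX6 and is held at the membrane by PEX26. Pex2 was measured at 56.6 ± 10.2 and 48.4 ± 3.78 CPM (−0.23 ± 0.15). Pex10 was at 14.3 ± 2.84 and 15.9 ± 0.494 CPM (0.15 ± 0.16). Pex6 was at 78.6 ± 13.4 and 73.5 ± 5.52 CPM (−0.10 ± 0.15), and Pex26 at 25.6 ± 2.88 and 22.7 ± 1.37 CPM (−0.18 ± 0.12). The groups overlapped for all of these genes, and the lowest edgeR adjusted p among them was 0.411, for Pex2.

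Control replicate 3 weighed on many members. It held the highest of the 6 values for 10 of 21 enzyme genes and 8 of 13 Pex genes, or 47.6% and 61.5%, against 23.8% of all genes tested. These ranks depend on the TMM factors, which were 1.13, 1.12 and 0.906 in Control replicates 1 to 3 and 0.912 to 1.01 in DKD. As an unscaled share of library counts, the Pex sum was lowest in Control replicate 3, at 0.0676%. The enzyme sum was highest there, at 0.673%. Without Control replicate 3 the median log2 fold change was 0.31 for the enzymes and 0.20 for the Pex genes. Ech1 then passed the threshold, alone among the members, while 1.88% of all genes did. The summed proximal tubule markers were also highest in that library. The part of tubule cells in the members' values was not tested.

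The other genes of the organelle were read from a list chosen with earlier results of these data known. Of its 62 names, 57 were tested. Among them 2 rose and 0 fell in the edgeR test, or 3.51%, against 1.16% of all genes, and the median was −0.08 with 22 higher and 35 lower. Pxmp4, a peroxisomal membrane protein gene, rose from 109 ± 2.33 to 218 ± 24.1 CPM (1.00 ± 0.13, edgeR adjusted p 0.0263). Ide, which encodes the insulin-degrading enzyme, rose from 88.2 ± 14.6 to 174 ± 12.9 CPM (0.98 ± 0.15, edgeR adjusted p 0.0391). Ide lost the call without DKD replicate 2, and both lost it without Control replicate 1, Control replicate 2, DKD replicate 1 or DKD replicate 3, and with a trend on transcript length removed. Those 4 fits called only 1, 13, 4 and 10 of all genes, and the log2 fold changes stayed near their size, from 0.91 to 1.02 for Pxmp4 and from 0.90 to 1.04 for Ide. With the length trend removed they were 0.90 and 1.09.

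Genes tied to PPARA outside the peroxisome were read from a further list, chosen with earlier results of these data known. Its counts therefore describe the list and are not an independent test of it. Of 43 tested, 10 rose and 0 fell in the edgeR test, or 23.3%, against 1.16% of all genes, with a median log2 fold change of 0.56, and 29 were higher and 14 lower. DESeq2 called 21 higher and 3 lower in this list, or 55.8%, against 13.7% of all genes. The 3 lower were Ppara, Cyp4a12a and Slc22a5. Among the 10 that rose were the pyruvate dehydrogenase kinase Pdk4 (2.5 ± 0.33), the uncoupling protein gene Ucp2 (1.70 ± 0.23), the mitochondrial thioesterase Acot2 (1.68 ± 0.18), the pantetheinase Vnn1 (1.49 ± 0.14), the lipase inhibitor Angptl4 (1.28 ± 0.15), Cpt1b (1.19 ± 0.15) and Slc25a20 (0.94 ± 0.12) of carnitine transport, the fatty acid hydroxylase Cyp4a31 (0.96 ± 0.14) and the lipase Mgll (0.88 ± 0.15). Reads of Acot2, Cyp4a31 and Cpt1b can be shared with other genes, which hold 37.3%, 32% and 79.7% of their 31-base words.

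Without Control replicate 1, Control replicate 2, DKD replicate 1 or DKD replicate 3, 0 of the 43 passed, in fits that called 1, 13, 4 and 10 of all genes. The log2 fold changes stayed near their size there, from 1.53 to 1.80 for Acot2 and from 1.16 to 1.33 for Angptl4. Ppara itself, named after its values were seen, was at 24.3, 27.7 and 36.9 CPM in Control and at 10.4, 15.6 and 13.4 CPM in DKD. Its groups did not overlap, DKD being the lower, and the log2 fold change was −1.18 ± 0.21 (edgeR adjusted p 0.0527). PPARA protein and activity were not measured, and their part in the values of this list was not tested.

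**Figure D4:**
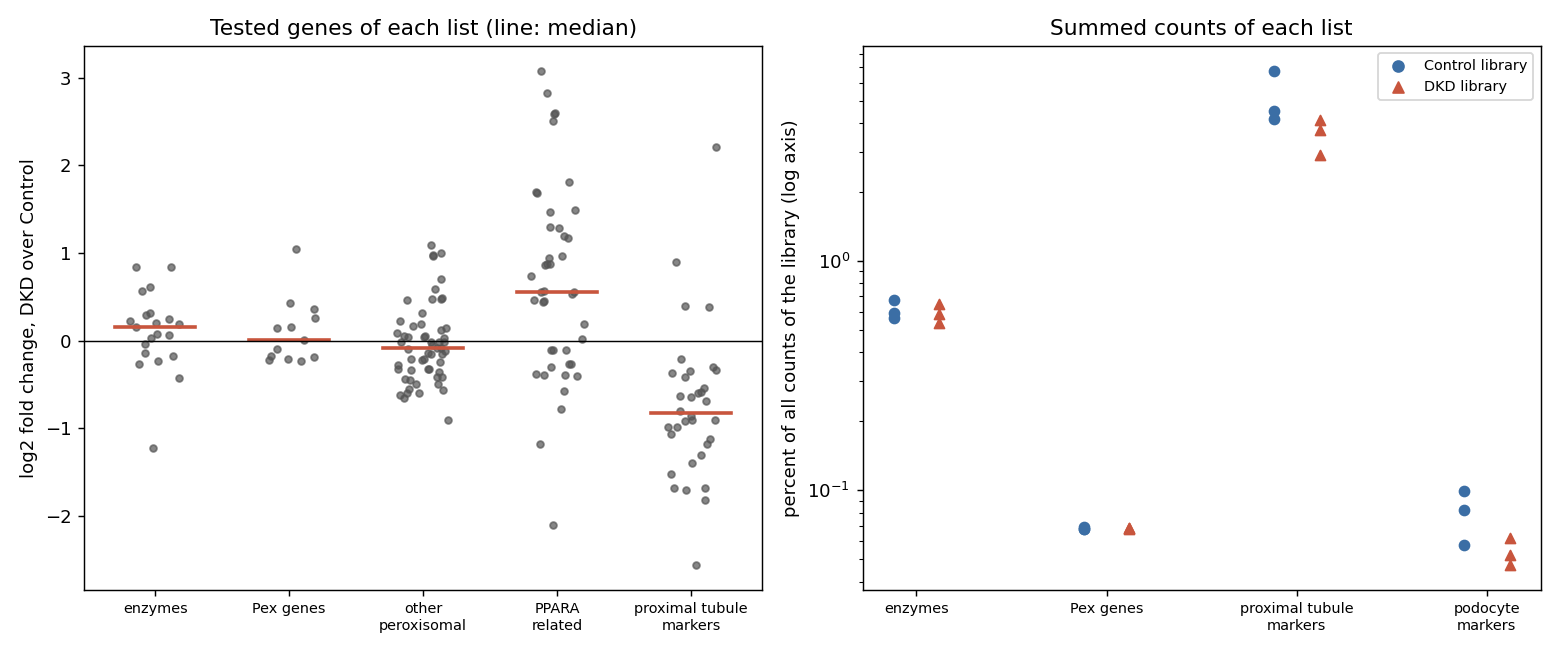
Left, log2 fold changes of the tested genes of each list, with the median as a line: 0.15 for the enzymes, 0.01 for the Pex genes, −0.08 for other peroxisomal genes, 0.56 for PPARA related genes and −0.83 for proximal tubule markers. Right, summed counts of 4 lists as a percent of each library (log axis), with Control libraries as circles and DKD libraries as triangles.

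PPARA binds DNA with a partner receptor at a direct repeat of AGGTCA with 1 base of any kind between the copies. The promoters of the members were searched for this repeat on both strands. RefSeq promoters of build GRCm38 were at hand for 28 members, and the 250 bases before the start were read. No member had an exact match, which 0.0335% of all 32851 promoters have. A single AGGTCA, which every exact repeat also holds, was found in 5 of these 28 members, which have 34 promoters between them. A member was counted if any of its promoters held it, while the share of 14% is over all single promoters. The closest stretches are shown for the members with at most 2 mismatches, Acot12, Acot4 and Cat, and for Ech1 and Pex11a because their transcripts had the smallest p. Where stretches of a promoter tied, the first one found is shown, and ties were not counted. Each is printed on the strand of its gene, with the 13 compared bases in capitals.
Acot12: taggacccTGACCTCTCACCTcctaagca
Acot4: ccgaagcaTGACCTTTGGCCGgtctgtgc
Cat: actctcagAGGTCAGAGAACAccagcagg
Ech1: gtcccactGGGCCAAAGGTTTaagcaacg
Pex11a: cctgatggGGTTCATGGGTACctggggac

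The Acot12 stretch (chr13:91741403-91741431, plus strand) has 1 mismatch in 12 letters when read on the opposite strand, and 0.484% of promoters have a stretch as close. Those of Acot4 (chr12:84038358-84038386, plus strand, read on the opposite strand) and Cat (chr2:103485337-103485365, minus strand) have 2, as 3.24% of promoters do. For Ech1 (chr7:28825135-28825163, plus strand) the stretch shown has 4 mismatches, reached by 74.5% of promoters. For Pex11a (chr7:79743283-79743311, minus strand) it has 5, reached by 99.6%. No stretch in either window had fewer, but others may have as many. The stretches of Ech1 and Pex11a were no closer than those of most promoters. Whether any of these stretches bears on the differences between the groups was not tested. This window is short, and matches outside it were not searched.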

How the data were processed

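Per the labels' protocols, libraries of poly(A) RNA were strand-marked with dUTP and read from both ends over 150 bases. The deposited values are raw counts for Ensembl genes, with no normalization. The submitters' processing notes name fastp, HISAT2, StringTie and edgeR with build GRCm39. Their versions, the annotation and whether counting used strand are not stated there, so reads of overlapping genes may be shared. Symbols and exonic lengths came from GENCODE M21 on GRCm38, with 55141 identifiers matched and 260 not.

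Genes were kept by filterByExpr (minimum count 10), scaled with TMM and tested with edgeR 4.0.16 in R 4.3.3 (quasi-likelihood, group only, 19717 genes). The standard error is the absolute log2 fold change over the square root of the F statistic. Alternatives used limma 3.58.1, DESeq2 1.42.0, other scalings and filters, and each library left out. The length trend had 5 degrees of freedom. Same-numbered libraries did not deviate together (correlations −0.183, 0.0663 and −0.224).

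In data simulated for DKD against Control over 19197 genes, the test recovered 38 of 100 genes with a true log2 change of 1. It recovered 82 of 100 with a true change of 2, and 4 of its 124 calls were false. Only these genes were changed, all with a mean above 1 CPM, and counts were drawn gene by gene from the fitted dispersions. No shift shared by many genes of a library was simulated, so recovery in the real data can differ. The members and lists were chosen with earlier results of these data known. All members were to be described, of the other lists the genes past the threshold, and of the marker lists the sum and up to 5 defining genes. Some genes that the naming rule would name are not reported here.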

Additional observations from a re-analysis of the deposited data

How the results depend on the processing

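Of 544 member values under 16 alternatives, 505 kept their direction and their side of the threshold, 10 passed the threshold where the main fit did not, and 29 in 10 members had the opposite sign. Counts of enzyme genes past the threshold were 1 with upper quartile factors, with library totals and with the 1 CPM filter, and 3 with DESeq2, and ran from 0 to 1 with 1 library left out. Pex genes past it were 1 with the 1 CPM filter and with DESeq2 and ran from 0 to 1 with 1 library left out. With 1 library left out the enzyme median ran from 0.01 to 0.31 and the Pex median from −0.10 to 0.20. Other peroxisomal genes gave 4 with library totals and with the 1 CPM filter, 1 without a filter, 8 with DESeq2 and 0 with the length trend removed (0 to 3 with 1 library left out). PPARA related genes gave 4 without a filter and 24 with DESeq2 (0 to 15 with 1 library left out). Over all genes 228 passed, 516 with the 1 CPM filter, 56 without a filter and 2483 with DESeq2 (1 to 386 with 1 library left out). Library totals gave 101 higher and 174 lower, against 143 and 85, and shifted the median of all genes from 0.003 to −0.13. With the replicate number as a block, 0 genes passed over all genes, in the other peroxisomal list and in the PPARA list. No same-numbered pair correlated above 0.1, and 0 of 3 Control libraries correlated best with their own number.

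Opposite signs were as follows. With library totals Acaa1b was −0.10, Cat −0.04, Acot12 −0.02 and Pex11g −0.09. With the length trend removed Acaa1b was −0.10, Cat −0.06, Acot12 −0.06 and Pex11g −0.08. With limma-voom Abcd2 was −0.50 and Phyh 0.003. With the replicate block Abcd2 was −0.92, Acaa1b −0.0003 and Phyh 0.01. With 1 library left out, values ran from −0.63 to 0.03 for Acox3, from −0.005 to 0.34 for Ehhadh, from −0.19 to 0.21 for Acaa1b, from −2.0 to 0.82 for Abcd2, from −0.02 to 0.45 for Crot, from −0.20 to 0.25 for Phyh, from −0.14 to 0.42 for Acot12, from −0.19 to 0.05 for Pex6 and from −0.10 to 0.20 for Pex11g. The cause of these differences was not tested. Abcd2 had the lowest counts of the members, from 17 to 334 per library.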
